A study of Mus musculus with 3 samples.

Results

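The interferon-induced transmembrane genes Ifitm1, Ifitm2 and Ifitm3 were described in single-cell RNA-seq of mouse small intestinal organoids. They are 3 of the 32285 genes counted, found by their symbols in the gene list of each library. They were chosen because of a measured value in these data, the level of Ifitm1 in the LApc library against WT, so the levels in that contrast are a description. The samples were 1 library each of organoids named WT, LApc and LApcL, all from C57BL/6 mice that entered the study at 7 to 8 weeks of age. Every mouse, by the labels also the WT, had received 2 doses of 2 mg tamoxifen. LApc carries the alleles Apc fl/fl and a Cre driver that the labels call Lgr5-CreERT2 and the study Lgr5-EGFP-IRES-CreERT2, and LApcL carries in addition the alleles Lef1 fl/fl. The labels give the WT genotype only as WT, a name that the study also uses for control mice with the driver alone. Tamoxifen activates the Cre recombinase, which is made in Lgr5-expressing crypt base cells, so that Apc, a brake on Wnt signalling, and in LApcL also the Wnt-responsive transcription factor Lef1 lose their floxed exons. Organoids were dissociated at day 6 of passage 3.

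IFITM proteins are small membrane proteins of the cell surface and of endosomes that hinder the entry of many enveloped viruses, and their genes respond to type I and type II interferons. Ifitm1 is found mainly at the cell surface, and Ifitm2 and Ifitm3 mainly in endosomes and lysosomes. In the intestine, members of the family have also been described among the genes raised in tumours with active Wnt signalling.

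The 3 genes are neighbours on mouse chromosome 7. In GRCm38 (GENCODE vM21), Ifitm2 lies at chr7:140954837-140955987 on the minus strand, Ifitm1 at chr7:140967221-140969825 on the plus strand and Ifitm3 at chr7:141009586-141010770 on the minus strand, within 55934 bases in all. Ifitm2 and Ifitm3 have 2 exons each, and the 3 annotated transcripts of Ifitm1 have 2 or 3. The coding sequence of Ifitm2 was 77.3% identical to that of Ifitm3, against 63.7% between Ifitm1 and Ifitm2 and 66.4% between Ifitm1 and Ifitm3. Near the 3′ end, where this assay reads, 1.99% of the 50-base stretches of Ifitm1, 25.4% of those of Ifitm2 and 12.3% of those of Ifitm3 also occurred in another annotated gene, so part of the Ifitm2 and Ifitm3 reads may not have been assignable to a gene.

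Because the 3 genes were high in the same libraries in the data that follow, the bases just before each gene are shown, from the RefSeq promoter table (GRCm38.p6), 5′ to 3′ on the gene's own strand. Capitals mark runs of 10 or more bases that Ifitm2 and Ifitm3 had in common, and Ifitm1 had no such run with either. The Ifitm1 stretch (chr7:140967826-140968027) lies before the start of its shorter transcripts and within the first intron of the longest, the Ifitm2 stretch is chr7:140955988-140956211 and the Ifitm3 stretch is chr7:141010771-141010994.
Ifitm1: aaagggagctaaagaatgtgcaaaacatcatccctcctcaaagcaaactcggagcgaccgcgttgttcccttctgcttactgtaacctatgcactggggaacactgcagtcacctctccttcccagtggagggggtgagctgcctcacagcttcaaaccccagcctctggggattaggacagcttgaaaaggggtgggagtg
Ifitm2: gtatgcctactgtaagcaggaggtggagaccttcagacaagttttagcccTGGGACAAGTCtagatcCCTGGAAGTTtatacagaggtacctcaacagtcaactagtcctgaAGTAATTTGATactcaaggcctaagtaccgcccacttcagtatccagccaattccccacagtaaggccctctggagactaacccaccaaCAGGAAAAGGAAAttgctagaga
Ifitm3: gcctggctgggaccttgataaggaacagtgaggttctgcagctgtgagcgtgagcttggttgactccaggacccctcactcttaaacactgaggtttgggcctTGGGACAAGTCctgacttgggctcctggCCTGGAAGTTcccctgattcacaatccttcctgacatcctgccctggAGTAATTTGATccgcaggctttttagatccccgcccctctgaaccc
The longest common run, of 13 bases, lies at the end of the Ifitm2 stretch, and its Ifitm3 copy lies just past the bases shown. It was found in 3 of the 32851 promoter windows of the genome table, those of Ifitm2 and Ifitm3 included, a share of 0.00913%. The interferon response motif GAAANNGAA, searched on both strands, was in the windows of Ifitm2 and Ifitm3, as in 8.56% of all windows, and not in that of Ifitm1. The match of Ifitm2 and the first match of Ifitm3 lie within the 13-base run, so they are not separate from it. The STAT motif TTCNNNGAA was in the Ifitm3 window only, as in 8.30% of all windows, where it lay beside the GAAANNGAA matches. The TCF/LEF motif CTTTGAT was in none of the 3 windows and in 3.73% of all. These matches describe letters in windows of fixed length and are not evidence of binding.

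Counts were of unique molecular identifiers (UMIs), each standing for 1 captured 3′ end of an mRNA. The libraries held 11411 (WT), 10706 (LApc) and 12068 (LApcL) barcodes, with 87185429, 118867221 and 112057783 UMIs. In every library 3195 of these barcodes were the same, between 26.5% and 29.8% of its barcodes. The shared barcodes carried the markers of another cell type, with summed endothelial markers (Pecam1, Cdh5 and others) at 3827 to 3833 CPM (UMIs of a gene per 1000000 UMIs of the population) and summed epithelial markers at 11.8 to 56.3 CPM. The main analysis was therefore of barcodes found in 1 library only, with at least 10000 UMIs and at most 20% mitochondrial UMIs, here called deep cells. There were 1208 in WT, 2161 in LApc and 1931 in LApcL, with median depths of 38070, 34380 and 32580 UMIs. Their summed epithelial markers were at 3871, 6671 and 7228 CPM, and their summed endothelial markers at 4.77, 21.6 and 12.6 CPM, highest in LApc. Immune markers summed to 1.88 to 2.32 CPM and fibroblast markers to 0.286 to 1.74 CPM.

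The libraries differed in more than genotype. By the labels, LApc tissue was taken 29 days after tamoxifen, and that of both other groups 21 days after it. The organoid methods of the study do not name day 29 for LApc crypts, so this difference in time rests on the labels. The female-specific transcript Xist was at 1281 CPM in LApc deep cells and below 1 CPM in the others, while the Y-linked Ddx3y was at 0.033 CPM in LApc, against 48.7 in WT and 49.3 in LApcL, so time, sex and genotype cannot be told apart in comparisons of LApc with WT or LApcL. WT and LApcL were alike in time and in these sex-linked genes. Apc was at 20.0, 88.5 and 95.4 CPM and Lef1 at 0.961, 72.0 and 47.8 CPM in WT, LApc and LApcL deep cells, but counts of 3′ tags per gene do not show whether the floxed exons were lost, so the deletion was not checked. With 1 library in each group no test between groups was possible, and intervals cover counting error only.

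All 3 genes were far higher in LApc deep cells than in WT. Ifitm1 was at 0.0409 CPM in WT (95% Poisson interval 0.00495 to 0.148), which is 2 UMIs in 2 of 1208 cells, at 1710 CPM in LApc (1702 to 1719) and at 505 CPM in LApcL (501 to 510). Ifitm2 was at 102 CPM in WT (98.98 to 105), 1347 in LApc (1340 to 1355) and 814 in LApcL. Ifitm3 was at 16.8 CPM in WT (15.7 to 18.0), 1729 in LApc (1721 to 1738) and 1694 in LApcL. Ifitm1 was thus nearly absent from WT deep cells, whereas Ifitm2 and Ifitm3 had a measurable level there.

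**Figure D1:**
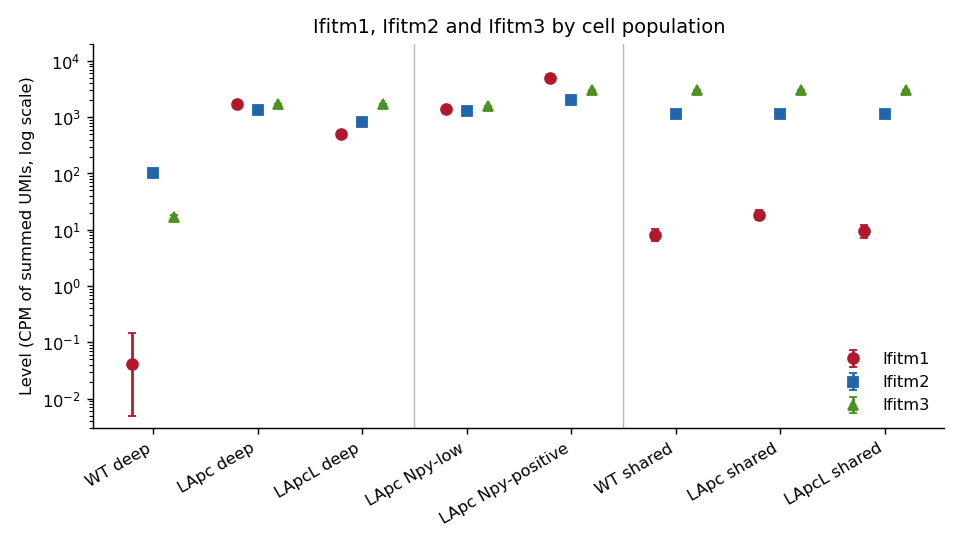
Summed level in CPM (log axis) of Ifitm1, Ifitm2 and Ifitm3 in the deep cells of the 3 libraries, in Npy-low and Npy-positive LApc deep cells and in the barcodes shared by all 3 libraries; bars are 95% Poisson intervals. Ifitm1 runs from 0.0409 CPM in WT deep cells to 4925 CPM in Npy-positive LApc cells, and the shared barcodes hold Ifitm2 and Ifitm3 but little Ifitm1.

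The LApc level over the WT level was 41810-fold for Ifitm1, with a counting interval of 11570 to 345200 because of the 2 UMIs in WT, and 1644-fold when 1 CPM was added to both levels. It was 13.2-fold for Ifitm2 (12.9 to 13.6) and 103-fold for Ifitm3 (96.0 to 110). On the log2 scale these were 15.35, 3.73 and 6.68, against a median of 0.44 over the 3538 genes with at least 50 CPM in either library. A gene with at least 50 CPM on either side and a ratio of 4 or more was called. The 3 of 3 members were called higher, where 7.04% of all such genes were called higher and 6.53% lower, and nothing is read from this because the members were chosen on it. Ifitm1 had the highest ratio of the 3538 genes, Ifitm3 was number 47 and Ifitm2 number 113. In this order a gene with 0 UMIs in WT stood at a floor of 3 counts. Ptn, at 0 in WT and 666 CPM in LApc, was such a gene, so the first place of Ifitm1 is not exact. Epithelial cells of the WT library were not all alike in their Ifitm levels. With WT cells of 5 or more UMIs of Fabp1, an enterocyte fatty acid carrier, left out, the log2 ratio was 2.97 for Ifitm2 and 5.61 for Ifitm3.

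The make-up of the family differed between the libraries. Of the UMIs of the 3 genes, Ifitm1 made up 0.0345% in WT, 35.7% in LApc and 16.8% in LApcL deep cells. Ifitm2 made up 85.8%, 28.2% and 27.0%, and Ifitm3 14.2%, 36.1% and 56.2%. These shares compare each gene between libraries, since UMIs were neither divided by length nor adjusted for reads lost to similar genes.

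LApcL differed from LApc mainly in Ifitm1. Its level was 3.38-fold lower in LApcL, a log2 ratio of -1.76, which placed it 3316 of 3357 genes when ordered from the highest ratio. Ifitm2 was 1.66-fold lower (log2 -0.73, place 3202) and Ifitm3 was 1.02-fold lower (log2 -0.03, place 2138), beside a median of 0.05 over all genes. The Ifitm3 difference had no stable direction, with a log2 ratio of 0.0719 when the Npy-positive LApc cells described later were left out and 0.00727 in cells with at least 20000 UMIs. None of the 3 members reached the 4-fold threshold, where 0.417% of genes were called higher and 1.1% lower. Against WT, the LApcL levels were 12360-fold (3420 to 102000), 8.00-fold and 100.8-fold higher for Ifitm1, Ifitm2 and Ifitm3.

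Deep cells were compared one by one after each had been thinned to 10000 UMIs. In WT, Ifitm1 was seen in 1 of 1208 cells, Ifitm2 in 43.7% with a mean of 1.05 UMIs, and Ifitm3 in 9.44% with a mean of 0.187. In LApc, Ifitm1 was seen in 77.1% of cells (95% Clopper-Pearson interval 75.3 to 78.9), with a median of 9 UMIs and a mean of 20.2. Ifitm2 was seen in 95.7% of LApc cells with a median of 12, and Ifitm3 in 93.1% with a median of 15. Before thinning the shares of LApc cells with a UMI were 91.3%, 99.2% and 98.3%. Ifitm1 was the most uneven of the 3 in LApc: its interquartile range was 1 to 33 UMIs, and the highest cell had 217.

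**Figure D2:**
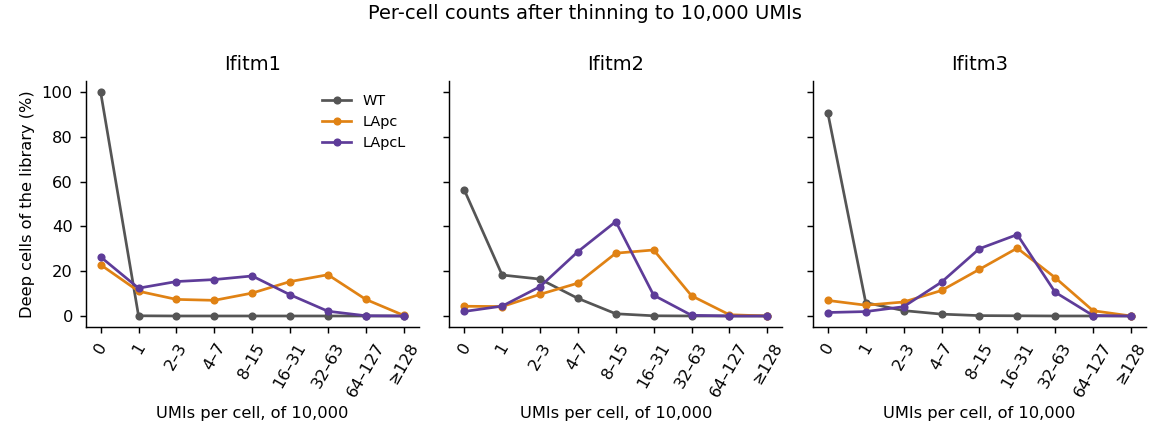
Share of deep cells (percent) by the number of UMIs per cell after thinning to 10000 UMIs, 1 panel for each Ifitm gene and 1 line for each library. WT cells gather at 0, LApc cells spread widely for Ifitm1, and LApcL cells lie at lower Ifitm1 counts than LApc but at nearly the same Ifitm3 counts.

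At 10000 UMIs, 73.6% of LApcL cells held Ifitm1, with a median of 3 and a mean of 6.27 UMIs. Cells with 10 or more Ifitm1 UMIs made up 49.1% of LApc and 23.8% of LApcL deep cells. Ifitm2 was seen in 98.0% of LApcL cells with a median of 8, and Ifitm3 in 98.5% with a median of 15, the same median as in LApc. The shares of cells with Ifitm1 depended on the depth, and at 1000 UMIs per cell they were 52.5% in LApc and 34.5% in LApcL.

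In most mutant deep cells at least 1 UMI of each of the 3 genes was seen after thinning. Exactly 1 Ifitm1 UMI was seen in 239 LApc cells (11.1%) and 240 LApcL cells (12.4%). The part of such UMIs that came from RNA outside the cell was not tested. All 3 were seen in 1601 LApc cells (74.1%) and 1391 LApcL cells (72.0%), and in no WT cell. Ifitm2 and Ifitm3 without Ifitm1 were seen in 16.5% of LApc, 24.6% of LApcL and 7.70% of WT cells. In WT, 54.5% of cells had none of the 3 and 36.0% had Ifitm2 alone, whereas cells with none made up 1.44% of LApc and 0.155% of LApcL. Across the 2161 LApc cells, which share a library and a thinned depth, Pearson's r of log2(UMIs + 1) was 0.646 for Ifitm1 and Ifitm2, 0.661 for Ifitm1 and Ifitm3 and 0.639 for Ifitm2 and Ifitm3. Across the 1931 LApcL cells the same values were 0.316, 0.359 and 0.510. LApc cells were also grouped by the genes Prox1 and Npy, as described later. The values were 0.637, 0.640 and 0.638 in the 1904 Npy-low and 0.288, 0.555 and 0.0396 in the 179 Npy-positive cells. In the 640 Prox1-low cells they were 0.411, 0.434 and 0.594, and in the 1294 Prox1-positive cells 0.399, 0.463 and 0.281.

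A minority of LApc cells expressed Npy, the gene of neuropeptide Y, which was at 396 CPM in LApc deep cells, at 0 in WT and at 0.0248 CPM in LApcL. In LApc, 179 deep cells had 5 or more Npy UMIs and 1904 had 0 or 1, with similar median depths of 34670 and 33860 UMIs. Ifitm1 was at 4925 CPM in Npy-positive and 1374 CPM in Npy-low cells. Ifitm2 was at 2022 against 1277 CPM, and Ifitm3 at 2990 against 1597 CPM. The ratios were 3.58, 1.58 and 1.87, or 1.84, 0.66 and 0.90 on the log2 scale, beside a median of 0.05 over 3594 genes. None of the 3 reached 4-fold, where 2.17% of genes were called higher and 1.0% lower, and Ifitm1 was number 92 from the top. The gate was set on Npy UMIs of the same cells, and no test across cells was made.

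Cells just outside and just inside the gate lay between these levels. The 78 cells with 2 to 4 Npy UMIs had 2058 CPM of Ifitm1, 1424 of Ifitm2 and 1874 of Ifitm3, and the 27 cells with 5 to 9 had 3768, 1714 and 2482 CPM. The 152 cells with 10 or more had 5125, 2075 and 3078 CPM. All 3 genes were thus highest in the cells with the most Npy. After thinning, Ifitm1 was seen in 99.4% of Npy-positive cells with a median of 50 UMIs, against 1428 of 1904 Npy-low cells with a median of 6. All but 1 of the 179 Npy-positive cells held the 3 genes together. Summed endothelial markers were at 68.3 CPM in Npy-positive and 16.6 CPM in Npy-low cells, with Cdh5 at 34.2 CPM in the former, where the 6 immune markers summed to 1.68 CPM, with 3 of them at 0 and Csf1r highest at 0.773 CPM; the part of this difference in the Ifitm levels was not tested. WT and LApcL had no Npy-positive deep cell, so the comparison has no counterpart there.

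Most Npy-positive cells also expressed Prox1, a transcription factor of lymphatic endothelium that is also a Wnt target in intestinal tumours. Of the 179 cells, 160 had 5 or more Prox1 UMIs and 2 had 0 or 1. In LApc, 1294 deep cells had 5 or more Prox1 UMIs (median depth 32830 UMIs) and 640 had 0 or 1 (39330 UMIs). Ifitm1 was at 2762 CPM in Prox1-positive and 137 CPM in Prox1-low cells, a ratio of 20.2. Ifitm2 was at 1858 against 537 CPM, a ratio of 3.46, and Ifitm3 at 2389 against 655 CPM, a ratio of 3.65. Ifitm1 alone of the 3 was called higher, where 2.82% of 3474 genes were called higher and 0.95% lower. Ifitm1 was number 25 from the top, Ifitm3 number 106 and Ifitm2 number 112.

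In LApcL the same gate separated the Ifitm levels less. Ifitm1 was at 687 CPM in 746 Prox1-positive and 318 CPM in 719 Prox1-low cells, a ratio of 2.16. Ifitm2 was at 900 against 704 CPM, a ratio of 1.28, and Ifitm3 at 1936 against 1375 CPM, a ratio of 1.41. None of the 3 reached 4-fold in this comparison, where 1 of 3279 genes (0.0305%) was called higher and 0.244% lower. The 1 gene called higher was Prox1, which set the gate. Ifitm1 was number 3 of the 3279, an order that includes Prox1. On this raw gate the Prox1-low cells of LApcL thus had more Ifitm1, Ifitm2 and Ifitm3 than those of LApc, and its Prox1-positive cells had less of each. The gate did not select like cells in the 2 libraries. Prox1 itself was at 722 CPM in the Prox1-positive cells of LApc and 285 CPM in those of LApcL. In the Prox1-low cells it was at 6.21 and 13.8 CPM. In cells with no Prox1 UMI at equal depth, the Ifitm1 means were nearly equal, at 3.59 in LApc and 3.71 in LApcL. No test of the difference between the libraries was possible.

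**Figure D3:**
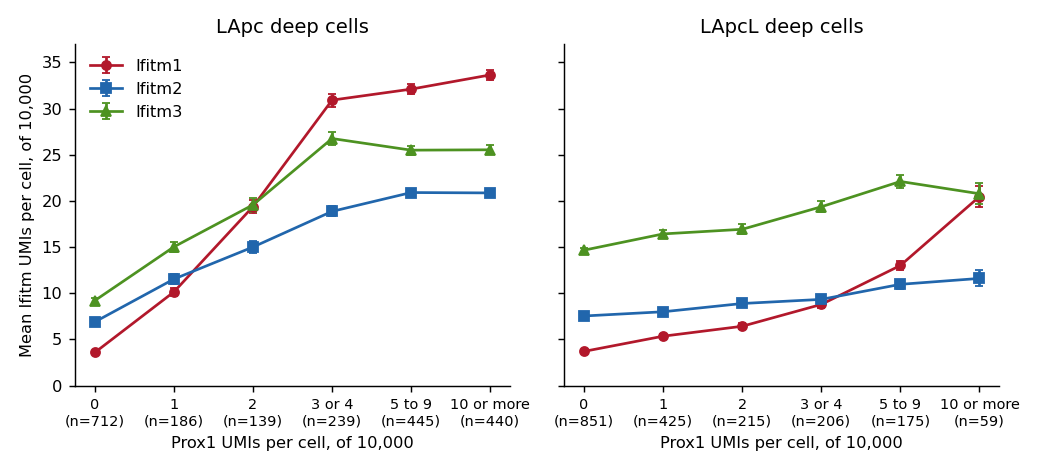
Mean number of Ifitm UMIs per cell, each cell thinned to 10000 UMIs, by the number of Prox1 UMIs in the same thinned cell, for LApc (left) and LApcL (right). In LApc the Ifitm1 mean goes from 3.59 to 30.9 by 3 or 4 Prox1 UMIs and then levels off near 33.7, and in LApcL it goes from 3.71 to 20.5 over the whole range.

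With Prox1 read from the thinned cells, the Ifitm1 mean in LApc was 3.59 UMIs in the 712 cells with no Prox1 and 10.2 in the 186 cells with 1. It was 19.4 at 2, 30.9 at 3 or 4, 32.1 at 5 to 9 and 33.7 in the 440 cells with 10 or more. The means of Ifitm2 and Ifitm3 had the same shape, from 6.90 to 20.9 and from 9.21 to 25.5 UMIs. In LApcL, Ifitm1 was at 3.71 in 851 cells with no Prox1 and at 20.5 in the 59 cells with 10 or more. Thinned cells with no Prox1, which include cells with a few Prox1 UMIs before thinning, therefore had nearly the same Ifitm1 mean in both mutant libraries, but not the same distribution. Of these cells 43.7% held Ifitm1 in LApc (median 0 UMIs) and 62.98% in LApcL (median 1). In the same cells the Ifitm3 mean was 9.21 in LApc and 14.7 in LApcL.

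Npy and Prox1 each went with Ifitm1 when the other was held. Without the Npy-positive cells, the ratio of Prox1-positive over Prox1-low LApc cells was 18.6 for Ifitm1, 3.45 for Ifitm2 and 3.54 for Ifitm3. Among Prox1-positive cells alone, the ratio of Npy-positive over Npy-low was 2.06, 1.10 and 1.29. Ifitm2 was thus nearly level across the Npy gate within Prox1-positive cells. Summed endothelial markers were at 28.1 CPM in Prox1-positive and 10.9 CPM in Prox1-low LApc cells, and their part in these ratios was not tested.

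The Lgr5 and Mki67 gates gave higher Ifitm2 and Ifitm3 levels in WT and lower ones in LApc. Lgr5 marks crypt base stem cells, and in WT the 39 cells with 5 or more Lgr5 UMIs had 315 CPM of Ifitm2 and 115 CPM of Ifitm3, against 79.6 and 9.75 CPM in the 1069 cells with 0 or 1. The ratios were 3.96 and 11.8, and the log2 ratios were 1.63 and 2.57 with a gate read from thinned cells, which set cells with at least 1 Lgr5 UMI against those with 0. In LApc the Lgr5-positive cells were lower in all 3 genes, by 2.53, 1.56 and 1.34 times (thinned log2 -0.56, -0.20 and -0.22). For Mki67, a gene of dividing cells, the WT positive cells had 2.11 times the Ifitm2 and 2.81 times the Ifitm3 of the low cells, while the LApc positive cells were 4.31, 2.38 and 1.92 times lower in Ifitm1, Ifitm2 and Ifitm3. In LApcL the Mki67-positive cells were 2.16, 1.40 and 1.13 times lower. Mki67-positive cells were deeper than Mki67-low cells in every library, and the directions were the same with the thinned gate. In LApc the thinned log2 ratios of Ifitm1, Ifitm2 and Ifitm3 were -1.39, -0.94 and -0.62, and the raw ones -2.11, -1.25 and -0.94. The differences between libraries in these relations were not tested.

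**Figure D4:**
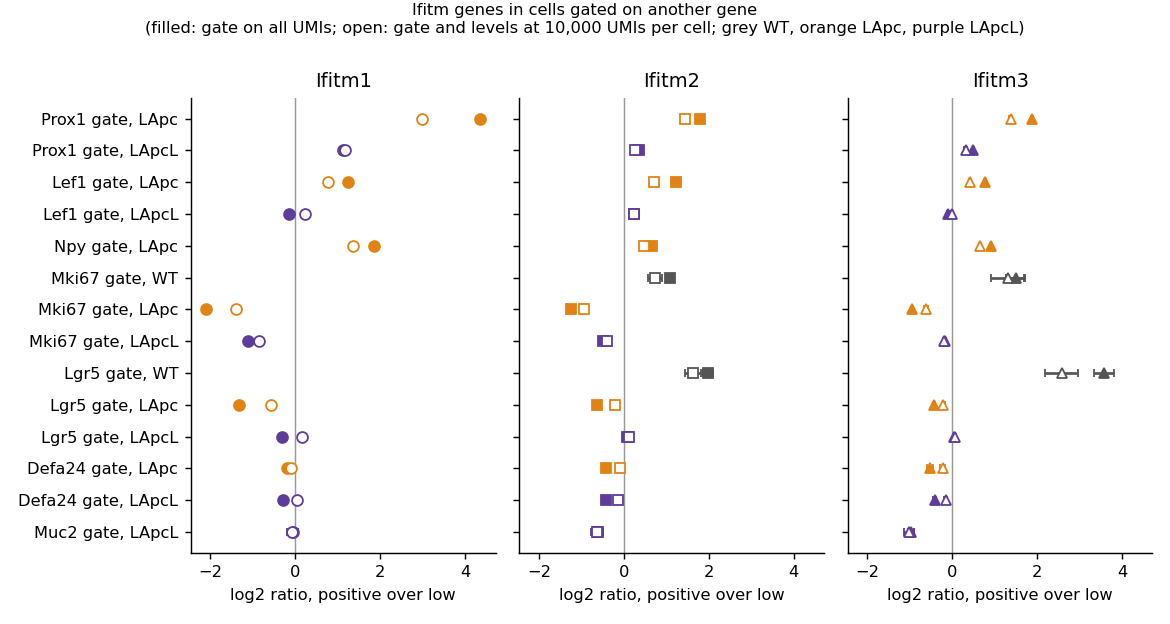
Log2 ratio of the Ifitm level in cells positive for a gate gene over cells low for it, for each Ifitm gene and library. Filled points use the raw gate (5 or more UMIs against 0 or 1), and open points a gate and levels from cells thinned to 10000 UMIs (at least 1 UMI against 0). The Prox1 and Npy gates lie above 0 in LApc, and the Mki67 and Lgr5 gates lie below 0 in LApc but above 0 in WT.

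The relation to Prox1 in LApc was present in both states of Mki67. The Prox1-positive over Prox1-low ratios of Ifitm1, Ifitm2 and Ifitm3 were 14.1, 3.24 and 3.27 among Mki67-low cells and 24.7, 2.64 and 3.51 among Mki67-positive cells. For Lef1, LApc cells with 5 or more UMIs had 2.36, 2.32 and 1.70 times the levels of Lef1-low cells (thinned log2 0.76, 0.71 and 0.41). In LApcL the Ifitm1 log2 ratio across the Lef1 gate was -0.16 on the raw gate (247 positive cells) and 0.24 on the thinned gate (699 positive cells), which differ in both depth and threshold. Across the Lgr5 gate it was -0.33 and 0.15, and across the gate of the Paneth cell gene Defa24 it was -0.30 and 0.03, the last with a counting interval of -0.03 to 0.09. In WT the 770 Fabp1-positive cells were 2.83-fold lower in Ifitm2 and 5.58-fold lower in Ifitm3 than the 257 Fabp1-low cells. The goblet cell mucin gene Muc2 gave log2 ratios of -0.05, -0.60 and -0.98 for Ifitm1, Ifitm2 and Ifitm3 in LApcL, beside a median of -0.45 over all genes tested.

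The genes most like each member across cells were found by Pearson's r of log2(UMIs + 1) in thinned deep cells, as a description. In LApc (2161 cells, 3077 genes) Ifitm1 was most like Nkd1, a feedback inhibitor of Wnt signalling (r = 0.742), and Prox1 (0.701). They were followed by Aspscr1 (0.666), Ifitm3, Tcf4 (0.661), the ferritin gene Fth1 (0.660), the growth factor gene Ptn (0.653) and the secreted Wnt inhibitor gene Notum (0.652). It was least like Lgals4, an epithelial galectin (-0.764). Nkd1 was also the gene most like Ifitm2 (0.657), and it came next to the other 2 members for Ifitm3 (0.555).

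In LApcL (1931 cells, 3103 genes) the leading gene for Ifitm1 was Vim, an intermediate filament gene (0.462), and Prox1 was at 0.403, while Nkd1 was at 0.217. Ifitm2 was most like the histone gene H3f3a (0.553) and the peroxide-reducing enzyme genes Prdx1 (0.538) and Prdx2 (0.527), and Ifitm3 like Ifitm2 (0.510), H3f3a (0.466) and Prdx2 (0.445). Nkd1 itself was at 0.368, 528 and 179 CPM in WT, LApc and LApcL deep cells, Ptn at 0, 666 and 1.06 CPM, and Vim at 14.6, 892 and 289 CPM. In WT (1208 cells), Ifitm2 was most like Ptma (0.559) and Hsp90ab1 (0.539). Ifitm3 was most like Olfm4 (0.416) and Smoc2 (0.388), both genes of crypt base cells. Ifitm1 was too low in WT to be compared.

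Other interferon-related genes were read from lists. Of 4 other Ifitm genes none reached 50 CPM in LApc or WT. Ifitm6, which lies beside Ifitm3, was at 0.0614 CPM in WT (3 UMIs), 17.8 CPM in LApc (1620 UMIs) and 0.547 CPM in LApcL (44 UMIs), and Ifitm5, a bone gene that lies beside Ifitm2, was at 0.539 CPM in LApc and at 0 in WT. Of 38 interferon-stimulated genes found, 3 reached 50 CPM in LApc or WT and 1 was called higher in LApc. Of all genes tested there, 7.04% were called higher and 6.53% lower. The gene called was Ly6e, a membrane protein gene that was at 21.7, 159 and 165 CPM in WT, LApc and LApcL (log2 2.87). Lgals3bp (0.65) and Bst2 (0.48), whose product tethers virus particles, were not called, and the median of the 3 was 0.65, beside 0.44 over all genes tested. Of 16 genes of interferon receptors and signalling, 3 were tested and none was called, with the receptor gene Ifngr1 at 241 CPM in WT and 61.4 CPM in LApc. Between LApcL and LApc, none of 5 interferon-stimulated and none of 3 signalling genes was called, where 0.417% of all genes were called higher and 1.1% lower. The median log2 ratio of the 5 was 0.08, beside 0.05 over all genes tested. Below 50 CPM, the interferon-stimulated genes had ratios in both directions. Zbp1 (164 against 3 UMIs, log2 4.88), Ifit2 (363 against 9, 4.44) and Usp18 (686 against 19, 4.28) were higher in LApc than in WT, and Oasl1 (584 against 1640, -2.38) and Ifit1 (354 against 717, -1.91) were lower. Between LApcL and LApc they also lay in both directions, with Usp18 (47 against 686 UMIs, -3.69), Ifit1 (97 against 354, -1.69) and Igtp (131 against 400, -1.44) lower and Ifi27l2a (194 against 86, 1.35) and Rtp4 (421 against 225, 1.08) higher in LApcL.

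**Figure D5:**
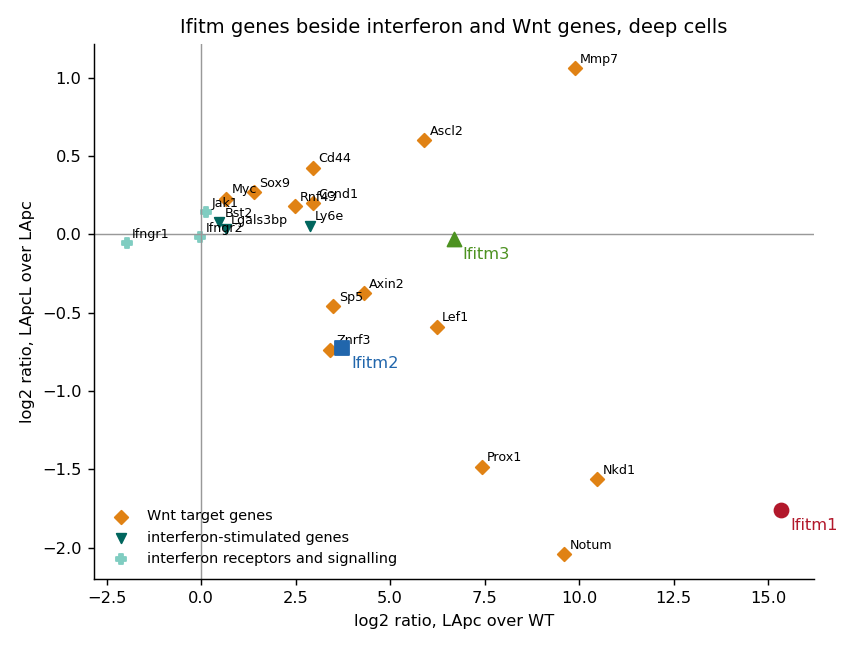
Log2 ratio of LApc over WT (x axis) and of LApcL over LApc (y axis) in deep cells, for the 3 Ifitm members and for Wnt target, interferon-stimulated and interferon signalling genes with at least 50 CPM. Ifitm1 lies farthest to the right at 15.35 and low at -1.76, near Nkd1 and Prox1 on the y axis, and the interferon genes that reach 50 CPM lie near 0 on it.

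Of 18 Wnt target genes, 14 were tested between LApc and WT and 12 were called higher, with a median log2 ratio of 3.90, beside 0.44 over all genes tested, of which 7.04% were called higher. The highest were Nkd1 (10.48), Mmp7 (9.88) and Notum (9.60), and Prox1 was at 7.42. Between LApcL and LApc 1 of 16 was called lower, Notum (-2.04), where 1.1% of all genes were called lower and 0.417% higher. Nkd1 was at -1.56 and Prox1 at -1.48 beside the -1.76 of Ifitm1, while the stem cell gene Lgr5 was at 1.37 and Mmp7 at 1.06. The median of the 16 was 0.19, so the list as a whole did not follow Ifitm1. Across the Npy gate, where 2.17% of all genes were called higher and 1.0% lower with a median of 0.05, Ifitm6 was called higher (76.4 against 11.7 CPM, log2 2.71). Of 4 interferon-stimulated genes tested there, all had a log2 ratio above 0, with a median of 1.04, and Ly6e was called higher (593 against 115 CPM, 2.36). Of 16 Wnt targets, with a median of 0.49, Ascl2, a stem cell factor gene, was called lower (-2.38). Across the Prox1 gate in LApc none of 4 interferon-stimulated genes was called, and 3 of 14 Wnt targets other than Prox1, which set the gate, were called higher, beside 2.82% of all genes. These were Notum (3.87), Nkd1 (3.66) and Lef1 (2.29). Of the 15 tested with Prox1 counted, 6 had a log2 ratio below 0, down to -1.68. The median of the 15 was 0.88, beside 0.10 over all genes tested.

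Of the genes next to the family on chromosome 7, 5 on each side, 1 passed 50 CPM in deep cells. This was Nlrp6, an inflammasome gene of enterocytes, which was lower in both mutants, at 9.55 CPM in LApc and 13.8 in LApcL against 88.95 in WT. Pgghg was at 2.27 CPM in WT and 6.42 in LApc. Pkp3, B4galnt4 and Sigirr were at 25.3, 10.5 and 14.5 CPM in WT and at 26.8, 9.05 and 13.0 CPM in LApc.

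The barcodes common to all 3 libraries gave another picture of the family. After the mitochondrial limit, 3145 to 3151 of them were read in each library, and their median depth was between 1498 UMIs (LApc) and 2200 UMIs (WT). Ifitm3 was at 2984, 3026 and 2988 CPM in WT, LApc and LApcL, and Ifitm2 at 1140, 1157 and 1160 CPM. Ifitm1 was at 8.13 CPM (66 UMIs), 18.7 CPM (103 UMIs) and 9.38 CPM (56 UMIs). Levels of Ifitm2 and Ifitm3 were thus nearly the same in the 3 libraries, and Ifitm1 was low in each and highest in LApc. The shared barcodes of LApc had Ddx3y at 143 CPM and Xist at 4.89 CPM, unlike the deep cells of that library. In the shared barcodes of WT and LApcL, Ddx3y was at 142.5 and 139.6 CPM. The 3 sets of counts are of the same barcodes and are not independent measurements of 3 cultures. Their origin was not tested. A UMI of Ifitm3 was in 84.9% to 90.7% of the shared barcodes, one of Ifitm2 in 68.7% to 76.8%, and one of Ifitm1 in 0.763%, 2.54% and 0.857%. Of the 80 LApc barcodes with Ifitm1, 65 had 1 UMI.

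Against the deep cells of the same library, the shared barcodes had 199 times the Ifitm1 (interval 52.9 to 1675, over the 2 UMIs of WT), 11.2 times the Ifitm2 and 178 times the Ifitm3 in WT. In LApc they had 91.7-fold less Ifitm1, 1.16-fold less Ifitm2 and 1.75-fold more Ifitm3. In LApcL they had 53.9-fold less Ifitm1, 1.425-fold more Ifitm2 and 1.76-fold more Ifitm3. The same barcode had similar counts in the 3 libraries. Over 3134 barcodes, the pairwise r of log2(UMIs + 1) was 0.829 to 0.863 for Ifitm3, 0.709 to 0.771 for Ifitm2 and 0.442 to 0.671 for Ifitm1, and that of total depth was at least 0.993. Iigp1, an interferon-induced GTPase gene, was at 778 to 810 CPM in the shared barcodes against at most 0.124 CPM in deep cells. In WT most other listed interferon-stimulated genes were also higher in the shared barcodes. Among these were Ly6e (1630 against 21.7 CPM) and Isg15 (223 against 4.48 CPM). Oas1a was low in both (1.85 against 0.798 CPM), and Oasl1 was lower in the shared barcodes (8.62 against 33.5 CPM).

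Within the shared barcodes the levels of Ifitm2 and Ifitm3 went with the kind of endothelial marker. In WT, 785 barcodes carried lymphatic markers and 1948 blood vessel markers. Ifitm3 was at 2472 CPM in the lymphatic-marked and 3305 CPM in the blood-marked barcodes (1.34-fold lower), and Ifitm2 at 909 against 1289 CPM (1.42-fold lower). Neither of the 2 members tested was called, where 5.72% of 3742 genes were called higher and 4.89% lower. The LApc and LApcL counts of the same barcodes gave 1.35-fold and 1.34-fold for Ifitm3 and 1.45-fold and 1.40-fold for Ifitm2, which are not independent of those of WT. Ifitm1 was at 1.18 CPM (3 UMIs in 2 barcodes) against 9.66 CPM (48 UMIs in 16 barcodes, 13 of them in 1) in WT. That was 8.16-fold lower with a counting interval of 2.63 to 40.96, and 4.34-fold lower with barcodes weighted equally. In the LApc counts of these barcodes Ifitm1 was 1.63-fold lower (0.985 to 2.79), an interval that includes no difference, and in the LApcL counts 2.72-fold lower (1.20 to 7.21). The intervals treat UMIs of 1 barcode as independent, so no Ifitm1 difference is read from so few barcodes. Among the 25 interferon-stimulated genes tested, Ifi27l2a (log2 2.47) was called higher in lymphatic-marked barcodes and Rsad2 (-2.47) and Oasl2 (-2.04) lower, with a median of -0.25.

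Blood-marked barcodes were not uniform either. In WT, the 371 with a UMI of Chst4 or Fut7, genes that make the sugar ligands of high endothelial venules, had 3840 CPM of Ifitm3 against 3059 CPM in the 1433 with neither these nor arterial markers (1.26-fold), and 1591 against 1180 CPM of Ifitm2 (1.35-fold). The 153 arterial-marked barcodes, which overlap with those 371, had 25 Ifitm1 UMIs in 5 barcodes, 13 of them in 1 barcode, and no ratio is read from so few barcodes. Their Ifitm3 level was 1.09 times and their Ifitm2 level 0.863 times that of the 1433.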

How the data were processed

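The authors deposited filtered barcode by gene matrices with whole-number counts of UMIs from 10x Genomics 3′ libraries, not normalised and with 1 matrix per library. The submitters' processing notes name Cell Ranger 2.1.1, while the file header names 6.0.1, so the version that made these files is uncertain. Reads that map equally well to more than 1 gene are discarded by that tool.

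The 3 members and all gene lists were chosen with earlier results of these data known. Deep cells were barcodes of 1 library with at least 10000 UMIs and at most 20% mitochondrial UMIs. Levels were CPM of summed UMIs with exact Poisson 95% intervals, ratios had exact conditional binomial intervals, and shares had Clopper-Pearson intervals. UMI counts were not divided by gene length, so levels are compared between populations and not between genes. A gene was called at a ratio of 4 among genes with at least 50 CPM on either side. A gene with 0 UMIs was set to a floor of 3 counts in ratios. Gates were 5 or more UMIs against 0 or 1, with at least 20 cells on each side, and thinned gates were at least 1 UMI against 0. For comparisons between cells, each cell was thinned to 10000 UMIs (shared barcodes also to 1000) with a fixed seed, and likeness used genes with a mean of at least 0.5 UMI.

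The genes named were the members, per list and comparison up to 4 with the highest and 3 with the lowest ratios, the 8 most like each member in LApc and LApcL, and 5 neighbours on each side of the family. Genes most like a member in WT, genes least like one, Ifitm5, Ifitm6, Xist and Ddx3y were chosen after their values were seen. So were the interferon-stimulated genes named under 50 CPM and those set between shared barcodes and deep cells, Iigp1 and Oas1a among them. No doublet caller was run, and the 5% of barcodes with the most UMIs were left out as an alternative. Other alternatives changed the UMI and mitochondrial limits, the scaling, the gates and the barcodes kept. Python 3.11.15, numpy 2.4.6, scipy 1.17.1, pandas 2.3.3 and matplotlib 3.10.9 were used, and the code was tested on simulated data. No motif, list or correlation was tested for significance.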

Additional observations from a re-analysis of the deposited data

Results flagged for a closer look

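Barcodes outside the deep cells were not part of the comparisons above, and they also held Ifitm1 in the mutant libraries. In barcodes of 1 library with fewer than 10000 UMIs and at most 20% mitochondrial UMIs, Ifitm1 was at 582 CPM in LApc and 311 CPM in LApcL. In WT no Ifitm1 UMI was seen there, which allows up to 0.631 CPM. In barcodes of 1 library with at least 10000 UMIs of which more than 20% were mitochondrial, Ifitm1 was at 177 CPM (LApc) and 211 CPM (LApcL), and again no UMI was seen in WT. These values were singled out because they lie above the WT level in barcodes that the comparisons did not use.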

How the results depend on the processing

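All values here are log2 ratios, and 60 alternatives kept their result within its counting interval, 49 moved it past that and 2 turned its direction. The 60 included all 15 for the lymphatic-marked against blood-marked barcodes. For LApc against WT, adding 1 CPM to both levels gave 10.68 for Ifitm1. Ifitm2 was at 3.31 with at most 10% mitochondrial UMIs, 3.80 with no such limit, 3.82 with cells weighted equally, 3.46 with median-of-ratios scaling, 3.81 without the 5% deepest barcodes, 3.66 without Npy-positive cells and 2.97 without Fabp1-positive WT cells. Ifitm3 was at 6.29 with at most 10% mitochondrial UMIs, 6.42 with median-of-ratios scaling, 6.58 without Npy-positive cells and 5.61 without Fabp1-positive WT cells.

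For LApcL against LApc, Ifitm1, Ifitm2 and Ifitm3 were at -1.81, -0.74 and -0.0547 with at most 10% mitochondrial UMIs, at -1.73, -0.71 and -0.00918 with no such limit, at -1.69, -0.83 and -0.18 with cells weighted equally, and at -1.81, -0.78 and -0.0785 with median-of-ratios scaling. Without Npy-positive cells they were at -1.48, -0.66 and 0.0719. Ifitm2 and Ifitm3 were at -0.75 and -0.0481 with at least 5000 UMIs, at -0.69 and 0.00727 with at least 20000, and at -0.75 and -0.0869 without the 5% deepest barcodes. Ifitm3 thus changed direction under 2 alternatives, and the cause was not tested.

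For Npy-positive against Npy-low cells, the 3 genes were at 1.87, 0.69 and 0.93 with at least 5000 UMIs, at 1.75, 0.59 and 0.84 with at most 10% mitochondrial UMIs, at 1.92, 0.74 and 0.98 with no such limit, and at 1.70, 0.58 and 0.85 with cells weighted equally. Ifitm1 was at 1.80 without the 5% deepest barcodes, and Ifitm1 and Ifitm3 were at 1.90 and 0.94 with a gate of 10 or more UMIs against 0. A gate read from thinned cells, chosen after seeing the data, gave 1.36, 0.47 and 0.65. No paired analysis was possible because each group had 1 library, and for the same reason no replicate could be left out. Ifitm1 had 2 UMIs among 48895147 in WT deep cells, so the size of its ratio depends on counting error and on any value added to both levels.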
